A study of Caenorhabditis elegans with 2 samples.

Results

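Peaks of a T-box factor at small nucleolar RNA (snoRNA) genes of Caenorhabditis elegans were described. They were taken from chromatin immunoprecipitation with sequencing (ChIP-seq) of whole young adult worms. All worms were strain OP636, genotype unc-119(tm4063) III; wgIs636. They carried an integrated transgene, wgIs636, for TBX-9 with GFP and FLAG at its C-terminal end, and were collected, males and hermaphrodites pooled as mixed sex, 63 h after release of starved L1 larvae. Antibody to GFP was used, and the 2 libraries are biological replicates 1 and 2 of 1 group. No other genotype, antibody or stage is part of the data, so no condition is compared with another here. The genotype lists no change at the native tbx-9 gene, whole animals mix all cell types, and a control experiment named in the labels was not analysed here.

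A peak was taken as a member where its summit in the pooled relaxed list of both libraries lay within 500 bp of a gene annotated as snoRNA and not within 250 bp of a tRNA gene. This rule gave 278 of 29990 nuclear peaks, and 1 further peak was left out because of its tRNA gene. Applied to each replicate's own list, it gave 250 peaks of 25645 in replicate 1 and 274 of 30000 in replicate 2. The 278 members were closest to 210 of the 346 nuclear snoRNA genes in the Ensembl release 115 annotation. Of these genes, 149 were closest to 1 member, 54 to 2 members and 7 to 3 members, so members that share a gene are not separate loci. No member lay within 25 kb of tbx-9.

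snoRNAs are short RNAs that guide chemical modification of ribosomal and spliceosomal RNA. Box C/D snoRNAs work with the methyltransferase fibrillarin and box H/ACA snoRNAs with a pseudouridine synthase. In vertebrates most snoRNAs are cut out of the introns of host genes, whereas in C. elegans many snoRNA genes, including ones that lie in introns, have a promoter of their own. Genes transcribed by RNA polymerase III, such as tRNA genes, commonly carry an A box and a B box, which are contacted by the factor TFIIIC. TBX-9 belongs to the T-box family of transcription factors and is known from embryonic morphogenesis. The annotation used here does not give the RNA that each snoRNA guides.

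The sequences below run 130 bases upstream and 20 bases into the snoRNA gene, 5′ to 3′ on the strand of that gene, from the RefSeq sequence of WBcel235, the assembly called ce11 in the peak lists. The first 5 are the upstream regions of strong peaks, picked to show an A box and a B box core, printed in capitals, in all but ZK994.7. Of the 20 strongest members, 6 were at a gene with such a pair, 1 at a gene with the element GCGGAACC and 13 at a gene with neither. The 13 include the peak at C51F7.4, which also reaches C51F7.3, a gene with a pair. A gene with an A box but no exact match to the core counts as having no pair. The A box was searched as TGGNNNA followed by any 2 or 3 bases and then GG, the B box core as GTTCNA, and a pair had the core starting 15 to 80 bases after the start of the A box on the same strand. ZK994.7, the strongest of all peaks, is shown because it holds no such pair. T24H7.6 is shown as a gene with a pair and a weak peak. The last 3 hold GCGGAACC, in capitals, which was not found together with an A box and B box pair upstream of any snoRNA gene.
ZK994.7 (chrV:8500449-8500598, plus strand): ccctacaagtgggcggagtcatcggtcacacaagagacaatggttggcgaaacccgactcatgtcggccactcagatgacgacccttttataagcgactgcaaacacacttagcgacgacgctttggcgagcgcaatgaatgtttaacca
T03F7.8 (chrV:11314128-11314277, plus strand): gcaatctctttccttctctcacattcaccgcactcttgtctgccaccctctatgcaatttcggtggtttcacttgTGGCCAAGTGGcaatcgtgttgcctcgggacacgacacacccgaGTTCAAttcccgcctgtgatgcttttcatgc
W03C9.9 (chrII:11960768-11960917, plus strand): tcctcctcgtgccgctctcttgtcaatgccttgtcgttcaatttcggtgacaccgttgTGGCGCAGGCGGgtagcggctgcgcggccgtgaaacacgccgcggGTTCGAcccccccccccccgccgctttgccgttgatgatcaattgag
Y75B12B.12 (chrV:15191074-15191223, minus strand): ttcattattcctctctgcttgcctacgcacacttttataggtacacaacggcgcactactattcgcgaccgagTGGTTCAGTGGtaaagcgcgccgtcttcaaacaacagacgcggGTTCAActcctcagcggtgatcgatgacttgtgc
T06C12.16 (chrV:15873907-15874056, minus strand): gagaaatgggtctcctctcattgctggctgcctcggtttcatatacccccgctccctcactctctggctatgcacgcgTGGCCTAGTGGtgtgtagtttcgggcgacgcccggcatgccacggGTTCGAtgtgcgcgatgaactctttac
T24H7.6 (chrII:6248587-6248736, plus strand): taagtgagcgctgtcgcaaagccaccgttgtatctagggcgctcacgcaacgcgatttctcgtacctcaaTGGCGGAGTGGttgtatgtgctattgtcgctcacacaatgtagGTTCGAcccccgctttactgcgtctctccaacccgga
F01D5.12 (chrII:14018422-14018571, minus strand): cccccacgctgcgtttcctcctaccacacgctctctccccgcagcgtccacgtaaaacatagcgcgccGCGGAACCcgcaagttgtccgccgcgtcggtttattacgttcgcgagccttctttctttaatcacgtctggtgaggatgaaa
Y53F4B.47 (chrII:15025874-15026023, minus strand): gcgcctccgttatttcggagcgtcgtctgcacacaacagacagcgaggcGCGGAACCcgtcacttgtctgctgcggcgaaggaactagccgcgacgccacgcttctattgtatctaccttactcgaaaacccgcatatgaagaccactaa
T26A8.6 (chrIV:8428720-8428869, minus strand): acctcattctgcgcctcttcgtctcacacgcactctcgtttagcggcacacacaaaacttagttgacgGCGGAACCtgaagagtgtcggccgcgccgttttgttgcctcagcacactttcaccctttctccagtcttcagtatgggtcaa

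The signal value of a peak is the authors' own score of its height, and its scaling is not stated in the sources used here, so it is used to order peaks within a list and rank 1 is the strongest nuclear peak of a list. The pooled list ran from 18.1 to 304.5, replicate 1 from 13.7 to 180.6 and replicate 2 from 9.37 to 127.6. Nuclear pooled peaks were 390 bp wide in 99.9% of cases, and 7 of the 29 narrower ones were at snoRNA genes. A separate, short deposited list holds the peaks that passed an irreproducible discovery rate (IDR) threshold, a measure of how well ranks repeat between replicates.

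Peaks at snoRNA genes stood high in the pooled list. Their median signal was 35.6, against 25.1 over all nuclear peaks, and their median rank percentile was 83.0, against 50 by definition. Of the 278 members, 36 overlapped an IDR peak, which is 12.9% (95% Wilson interval 9.50 to 17.4%, counting error only), beside 0.737% of all nuclear peaks. The 36 covered 33 IDR peaks and 33 snoRNA genes. Of the members, 59 were among the 500 strongest nuclear peaks (21.2%, 16.8 to 26.4%), beside 1.67% of all nuclear peaks. The remaining members were spread through the whole list, and the weakest had a signal of 18.1.

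The share of peaks at snoRNA genes fell along the ranks of the pooled list. Members made up 14 of the 50 strongest peaks (28%) and 10 of the peaks at ranks 51 to 100 (20%). They were 14 of 200 peaks at ranks 301 to 500 (7%) and 48 of the 9990 weakest (0.480%). The head of each replicate's own list was similar: members were 13 of the 50 strongest peaks in replicate 1 (26%) and 16 of 50 in replicate 2 (32%). At the edge of the distance rule, 6 members with a summit 481 to 500 bp from the gene had a median signal of 28.0, and 4 peaks at 501 to 520 bp had a median of 24.0, with no IDR peak in either set.

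**Figure D1:**
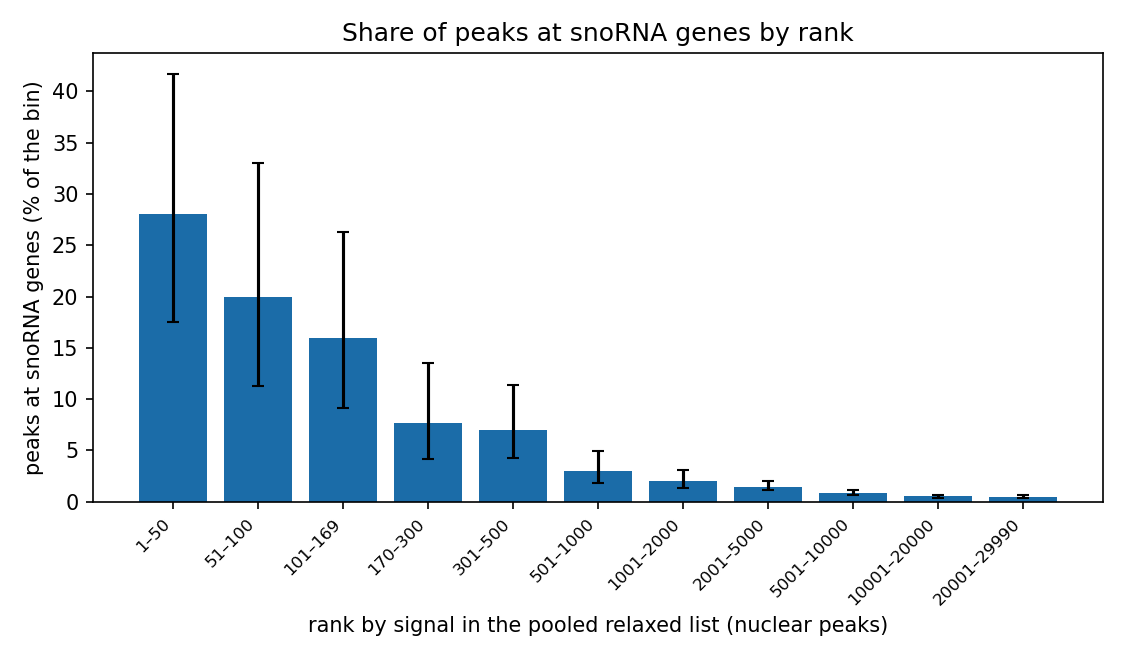
Share of peaks at snoRNA genes (%, y axis) in bins of rank by signal in the pooled list (x axis, strongest at the left); error bars are 95% Wilson intervals for counting error. The share is 28% among the 50 strongest peaks and 0.480% in the weakest bin.

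Members overlapped peaks of both replicates more often than nuclear peaks at large. A relaxed peak of each replicate overlapped 200 of 278 members (71.9%), beside 39.5% of all nuclear peaks, and 8 members (2.88%) overlapped none in either replicate, against 8.21% of all. This was not particular to snoRNA genes. A relaxed peak of each replicate overlapped 417 of 521 peaks within 250 bp of tRNA genes and 67 of 88 at snRNA genes, both larger shares than in members. The comparison with all nuclear peaks was not made at equal signal. A peak among the 500 strongest of each replicate overlapped 44 members (15.8%, 12 to 20.6%), beside 0.92% of all nuclear peaks. Here the shares at tRNA and snRNA genes were lower than in members, 12.1% and 9.09%. The 36 members in IDR peaks had a median rank of 84.5 in replicate 1 and 135.5 in replicate 2, whereas the other members had medians of 3173 and 4501. This contrast is largely built in, because the IDR threshold is set on ranks in the replicates. Across the 200 members with a peak in both replicates, Spearman's rho of the replicate signals was 0.661, and over the 11861 such nuclear peaks it was 0.305. These points share 2 libraries, and the members span a wide range of signal: within the 58 members among the 500 strongest that had both values, rho was 0.347.

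**Figure D2:**
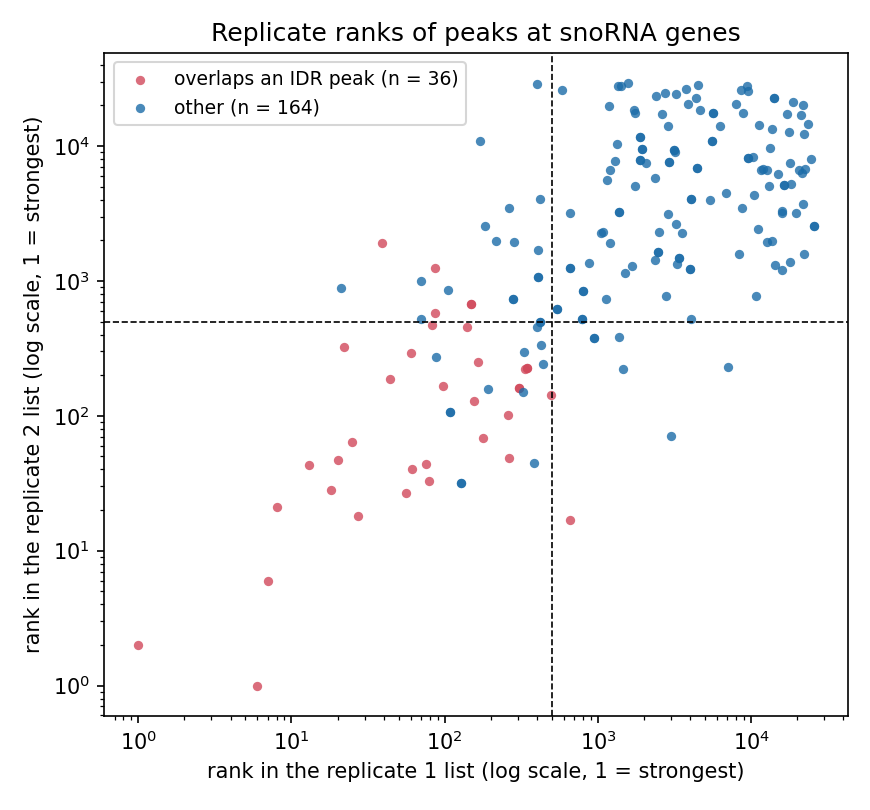
Rank of each of the 200 members with a relaxed peak in both replicates, in replicate 1 (x axis) and replicate 2 (y axis), both on log scales with 1 as the strongest; dashed lines mark rank 500. Members that overlap an IDR peak (n = 36) lie mostly in the lower left square, and the other 164 spread to the upper right. The IDR threshold is itself set on ranks in the replicates.

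ZK994.7, a snoRNA gene in an intron of the peroxidasin gene pxn-1 and on the same strand, had the strongest peak of the list. Its peak (chrV:8500427-8500700) had a signal of 304.5 in the pool, 180.6 in replicate 1 and 118.8 in replicate 2, at ranks 1, 1 and 2. The summit lay 20 bp upstream of the snoRNA 5′ end and 5670 bp from the closest start of a coding gene. No coding start therefore lay within the peak.

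The peak at C51F7.4, inside frm-7, which encodes a FERM domain protein, was next among members, with 277.4 in the pool, 149.2 in replicate 1 and 127.6 in replicate 2, at ranks 2, 6 and 1. Its summit lay 42 bp into C51F7.4 and 67 bp upstream of the neighbouring snoRNA gene C51F7.3, whose upstream window holds an A box and B box pair. This is 1 of 15 members with 2 or more snoRNA genes in reach, where the gene that a peak belongs to cannot be told apart by position.

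T03F7.8 lies inside the cuticlin-like gene cutl-18 on the strand opposite to it. Its signal was 235.9 in the pool, 139.1 in replicate 1 (rank 7) and 96.7 in replicate 2 (rank 6). The summit was 49 bp upstream of the snoRNA, 6 bp past the start of its A box and 38 bp before its B box core, so inside the A box of the sequence printed above.

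W03C9.9, outside coding genes, had a signal of 199.8 in the pool, 133.5 in replicate 1 (rank 8) and 67.1 in replicate 2 (rank 21), and its summit was 69 bp upstream. T06C12.16, also outside coding genes, had 162.3 in the pool, 100.5 in replicate 1 (rank 18) and 61.6 in replicate 2 (rank 28), with a summit 27 bp upstream. The summit fell inside the A box at W03C9.9, 3 bp past its start, and between the boxes at T06C12.16, 25 bp past the start of the A box and 20 bp before the B box core. Y75B12B.12, outside coding genes and with a pair, had 167.5 in the pool, 109.4 in replicate 1 (rank 13) and 57.7 in replicate 2 (rank 43), and its summit lay 35 bp inside the gene, past both boxes.

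Another 6 of the 20 strongest members lay inside coding genes on the host's strand, with a summit between 55 bp upstream of the 5′ end and 4 bp past it. C27H6.5, in unc-41, a gene of synaptic vesicle recycling, was at rank 18 with a pooled signal of 156.7 and a summit 55 bp upstream. D1046.6, in the cleavage factor gene cfim-2, was at rank 28 with 148.6 and a summit 4 bp inside. F38E11.14, in the cyclic nucleotide-gated channel gene cng-3, was at rank 34 with 138.3 and a summit 50 bp upstream. W08G11.6 in W08G11.3 (rank 48), F11A10.9 in the RNA-binding protein gene rbm-34 (rank 82) and Y43F8C.22 in Y43F8C.7 (rank 86) had summits 20, 16 and 8 bp upstream. F01D5.12 (rank 64) and Y43B11AR.7 (rank 75), also on the host's strand, had summits farther off, 134 and 342 bp past the 5′ end.

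Outside coding genes, ZK265.10 was at rank 14 with a pooled signal of 166.1, 91.7 in replicate 1 and 70.4 in replicate 2, and a summit 78 bp upstream. Y53F4B.48 (rank 37), Y23H5B.10 (rank 43) and T19B4.8 (rank 44) had summits 19, 39 and 49 bp upstream. On the strand opposite to their hosts, T04A8.17 in ppat-1 (rank 51) had its summit 11 bp inside and B0334.12 in the potassium channel gene twk-5 (rank 57) 123 bp downstream of the 5′ end. Of the 23 members that the naming rule picked, 14 had a summit 1 to 100 bp upstream of the snoRNA.

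A few strong members differed widely between the replicates. W08G11.6 had a signal of 96.5 in replicate 1 (rank 21) and 28.7 in replicate 2 (rank 885), and F01D5.12, in F01D5.10, had 40.9 in replicate 1 (rank 653) and 70.8 in replicate 2 (rank 17). Y71F9AM.7 in cogc-3, at rank 372 in the pool and 340 in replicate 1, overlapped no peak of replicate 2 and so has no difference in rank. Among the other members within the 500 strongest, all with a peak in both replicates, the largest differences were at 3 genes. These were JC8.15 in tag-115, at rank 171 in replicate 1 and 10917 in replicate 2, K10D3.10 in K10D3.4, at 264 and 3449, and F32E10.10, at 2989 and 71. None of these 3, nor W08G11.6, overlapped an IDR peak, whereas F01D5.12 did. Other members with discordant ranks also overlapped an IDR peak, among them C27H5.9, at rank 39 in replicate 1 and 1923 in replicate 2, and Y39G10AR.24, at 87 and 1247; both were picked after their values were seen. With 2 libraries, which of the discordant values is nearer the usual level cannot be told apart.

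The position of the summit went with the strength of the peak. Offsets are summit minus snoRNA 5′ end on the strand of the snoRNA, negative upstream. Over all 278 members the median offset was 54 bp, with quartiles at -70.75 and 254.5 bp. In the 36 members in IDR peaks it was -17.5 bp (quartiles -49 and 24.5 bp), in the 59 among the 500 strongest -20 bp, in the 79 at ranks 501 to 5000 62 bp, and in the 140 weaker ones 130.5 bp.

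The 100 bp just upstream of the snoRNA held 32 of the 59 summits among the 500 strongest (54.2%, 41.7 to 66.3%), 17 of 79 at ranks 501 to 5000 (21.5%) and 17 of 140 below (12.1%). For scale, those 100 bp are 8.85% of the stretch in which a summit counts as a member at a gene of median length (130 bp). The same held in the lists of single replicates: 34 of 56 summits among the 500 strongest of replicate 1 (60.7%, median -33 bp) and 24 of 46 in replicate 2 (52.2%, median -20.5 bp) lay in those 100 bp. Read from the IDR list itself, which gives its own intervals and summits, 21 of 33 IDR peaks at snoRNA genes had their summit there, with a median offset of -21 bp.

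**Figure D3:**
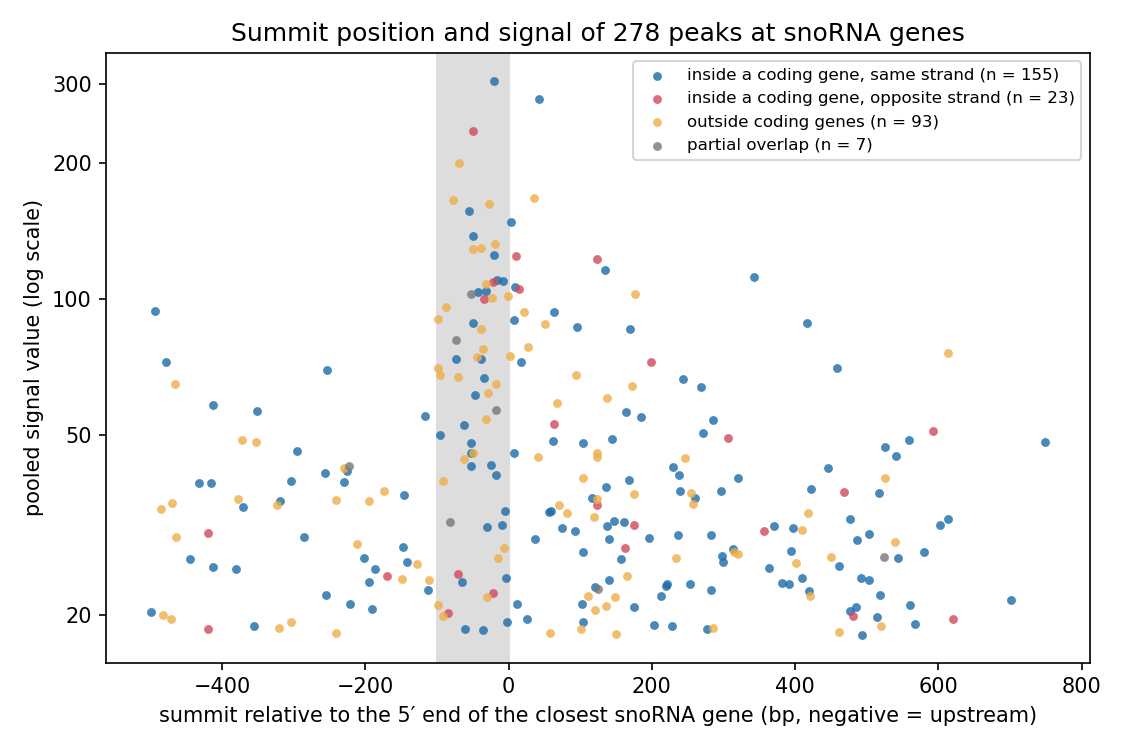
Pooled signal (y axis, log scale) against the summit's distance from the snoRNA 5′ end (x axis, bp, negative upstream) for the 278 members, coloured by the place of the snoRNA gene; grey marks the 100 bp upstream. Of the 59 members among the 500 strongest, 32 lie in the grey stretch, whereas weak members spread over the whole range.

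Members that were strong but far from the 5′ end mostly lay near a coding start. Of the 59 members among the 500 strongest, 7 had a summit over 200 bp from the 5′ end; 6 of these 7 had a coding start within 500 bp, against 17 of the 52 nearer ones, and 0 of the 7 overlapped an IDR peak, against 33 of the 52. These splits were chosen after the values were seen. They include Y43B11AR.7 in rps-4, a gene of the small ribosomal subunit, at rank 75 with 61.9 in replicate 1 and 60.2 in replicate 2, whose summit lay 342 bp past the snoRNA 5′ end and 128 bp from a coding start. For such peaks the snoRNA gene and the coding start cannot be told apart as the place of the signal. Over all members, 30.9% had a coding start within 500 bp, beside 28.7% of all nuclear peaks, and 30.6% of those in IDR peaks did.

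Strong peaks were found both inside and outside coding genes. The closest snoRNA gene lay inside a protein-coding gene for 178 members, on the same strand as the host for 155 and on the opposite strand for 23, and outside coding genes for 93, while 7 had a partial overlap. In 147 of the 178 the snoRNA overlapped no exon of its host. IDR peaks overlapped 15 of the 155 same-strand members (9.68%), 6 of 23 opposite-strand members (26.1%, 12.5 to 46.5%) and 14 of 93 members outside coding genes (15.1%). The IDR share inside coding genes minus that outside was -3.26 percentage points (Newcombe interval -12.8 to 4.83, counting error only), an interval that includes 0.

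Among the 500 strongest, the summit lay 1 to 100 bp upstream in 11 of 26 same-strand members, 3 of 7 opposite-strand members and 16 of 24 members outside coding genes. The median offsets were -12, 11 and -29.5 bp. The closest coding start was a median of 903, 582 and 998 bp away in these 3 classes. In 19 of the 33 strong members inside coding genes, no coding start lay within 500 bp of the summit. In the other 14 (42.4%, 27.2 to 59.2%) one did, beside 28.7% of all nuclear peaks.

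Ribosomal protein genes are well-known snoRNA hosts. In a count made after seeing the values, 19 snoRNA genes lay inside genes named rpl- or rps-, and 15 of them (78.9%) had a pooled peak within 500 bp, 2 a peak among the 500 strongest and 0 an IDR peak. The 2 were Y43B11AR.7 in rps-4 and B0412.7 in rps-29, with summits 342 and 458 bp past the 5′ end. A coding start lay 128 and 64 bp from these summits. Some of the 19 share a host, such as F54E7.10 and F54E7.11 in rps-12, so they are not all separate loci. Of the 197 snoRNA genes inside other coding genes, 122 (61.9%) had a pooled peak, 33 one among the 500 strongest and 22 (11.2%) an IDR peak. None of the 19 held an A box and B box pair upstream.

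Counted gene by gene, 216 of 346 snoRNA genes (62.4%) had a member within 500 bp, 60 had one among the 500 strongest and 35 had an IDR summit. The relaxed list holds peaks and background, so a member need not be a significant peak. The median −log10 q was 0.525 over members, 0.386 over those outside IDR peaks and 0.137 over all nuclear peaks. The share of other genes with a pooled summit within 500 bp was not counted. Relaxed peaks of replicate 1 reached 203 snoRNA genes and those of replicate 2 reached 229. IDR peaks were at 12 of 71 genes on chromosome II, 10 of 55 on V, 6 of 59 on IV, 5 of 74 on I, 2 of 54 on III and 0 of 33 on X, where the upper 95% limit is 10.4%. On X, 15 genes (45.5%) had a member, and 1, C53B7.8, had a peak among the 500 strongest, at rank 123 in the pool, 191 in replicate 1 and 158 in replicate 2.

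snoRNA genes with an upstream A box and B box pair were those most often under strong peaks. The letters were chosen after reading upstream sequences of the 45 strongest members, so this was partly built in. The window searched ran from 150 bases upstream to 20 bases into the gene on its own strand. A pair was found in 32 of 346 windows (9.25%) and in 0 on the opposite strand. The same window held a pair at 25 of 19973 protein-coding genes (0.125%), 0 of 129 snRNA genes and 4 of 261 miRNA genes. It held a pair at 1 of 612 tRNA genes, but this count cannot serve as a comparison. The boxes of a tRNA gene lie inside it, and the window stops 20 bases in. An A box was in 355 of the 612 tRNA windows, and the longer B box described below in 7. Of the 32 genes, 30 had a member, 20 one among the 500 strongest (62.5%) and 14 an IDR peak (43.8%, 28.2 to 60.7%). By replicate, 20 of the 32 had a peak among the 500 strongest of replicate 1 and 16 among those of replicate 2.

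The 295 genes with neither a pair nor GCGGAACC gave lower counts: 170 had a member (57.6%), 34 one among the 500 strongest (11.5%) and 19 an IDR peak (6.44%). The median rank of the strongest member was 183.5 for genes with a pair and 4181 for genes with neither. Read the other way, a pair was upstream of 14 of 35 genes with an IDR peak (40%), 16 of 181 with a relaxed peak only (8.84%) and 2 of 130 with no peak (1.54%), Y59E1B.14 and Y6B3B.15. An A box, with or without a core, was in the window of 21 (60%), 29 (16.0%) and 10 (7.69%) of these genes. These letters were chosen after the upstream sequences of the 45 strongest members had been read, so the counts above are not independent of the choice.

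Among the genes whose sequences had not been read, which by construction excludes most of the strong peaks, 13 of 15 with a pair had a member and 3 had one among the 500 strongest. Of 272 such genes with neither element, 147 had a member (54.0%), 11 one among the 500 strongest (4.04%) and 1 an IDR peak. The median ranks were 1659 with a pair and 5566 with neither. The 1 IDR peak among the 15 is that shared by C51F7.3 and C51F7.4. Through this peak C51F7.3 is also counted among the 3 genes with a pair and a peak in the 500 strongest. The peak is 1 of the 45 strongest members, whose sequences were read, so it is not apart from the choice of letters. T24H7.6, in T24H7.2, shows that a pair did not always go with a strong peak: its best pooled rank was 7635.

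**Figure D4:**
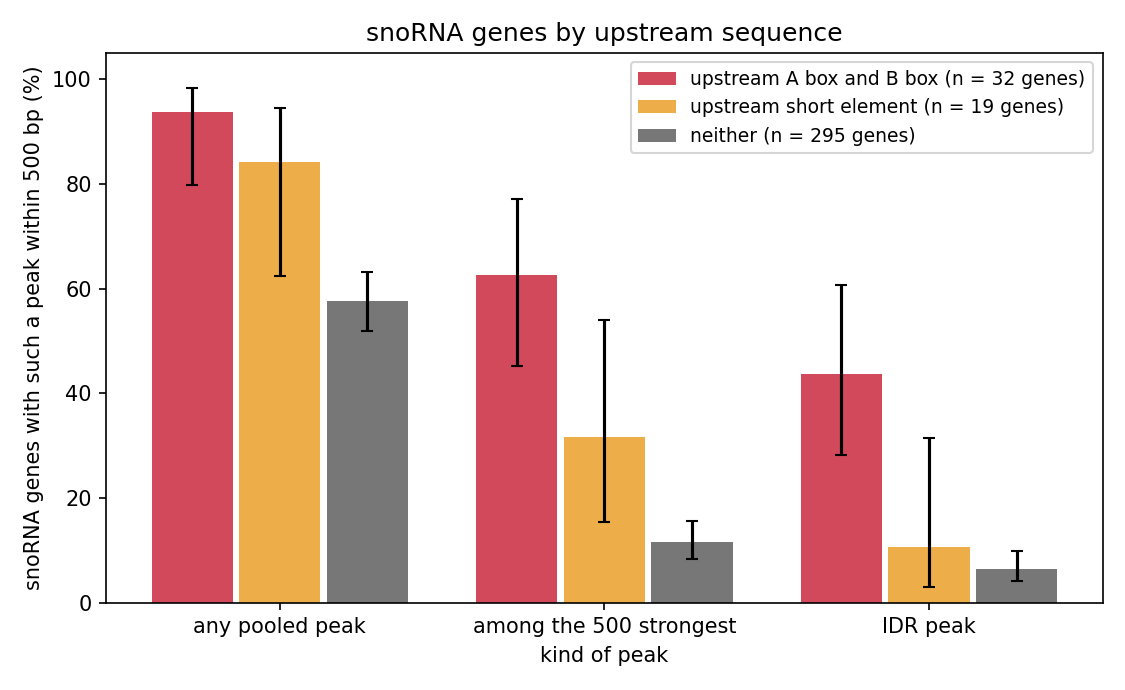
Share of snoRNA genes (%, y axis) with any pooled peak, a peak among the 500 strongest or an IDR peak within 500 bp (x axis), for genes with an upstream A box and B box pair (n = 32), with GCGGAACC (n = 19) and with neither (n = 295); error bars are 95% Wilson intervals for counting error. The share with an IDR peak is 43.8% with a pair and 6.44% with neither. Both sets of letters were chosen from upstream sequences of the 45 strongest members, so the shares are not independent of the choice.

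The boxes stood in a narrow range of positions, and the strong summits lay around them. Counted from the snoRNA 5′ end, the A box started at a median of -58.5 (quartiles -62.5 and -53.75) and the B box core at -14 (quartiles -17 and -10.75) over the 32 genes. In the 13 members in IDR peaks at these genes, the summit was a median of 25 bp past the start of the A box and 20 bp before that of the B box core. Among the 500 strongest, 14 of 19 members at genes with a pair had a summit 1 to 100 bp upstream, against 15 of 33 at genes with neither.

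**Figure D5:**
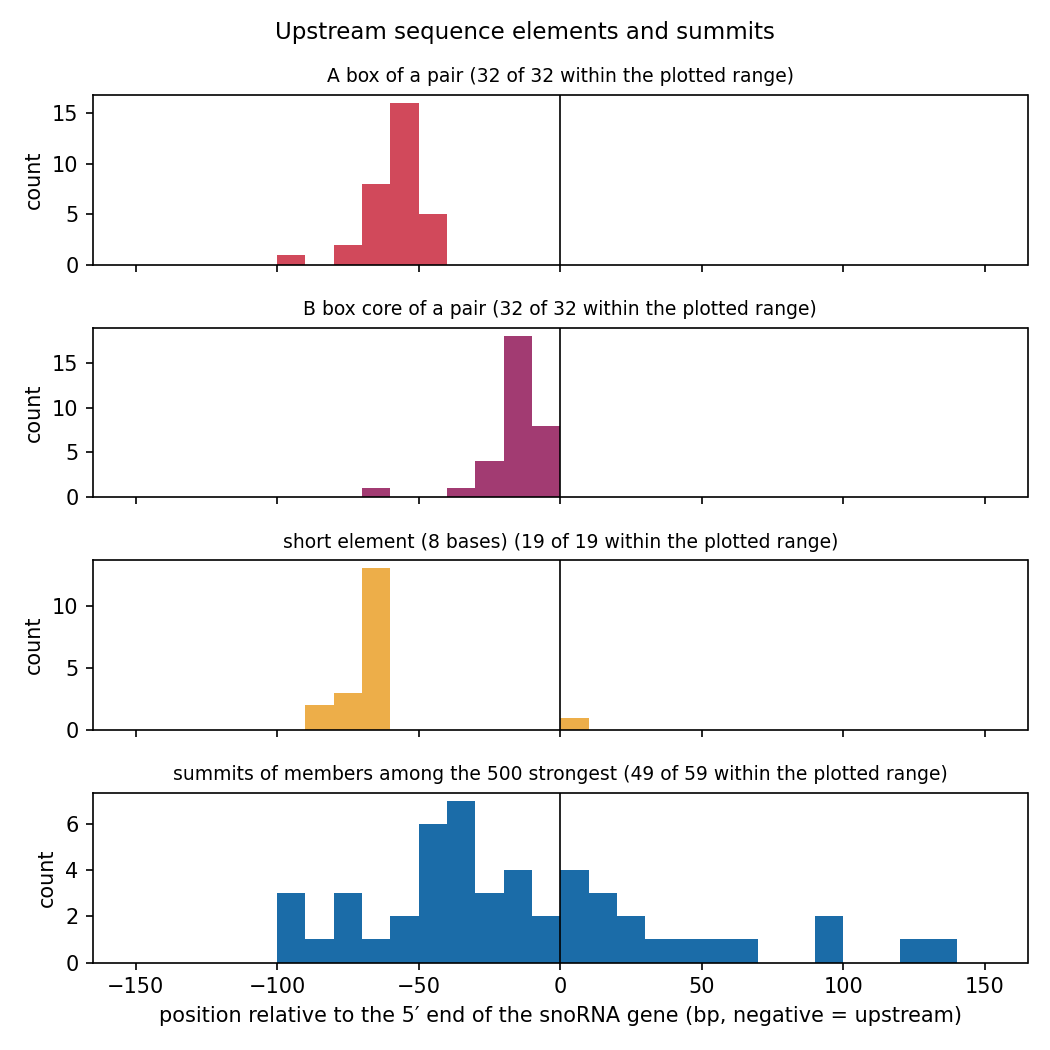
Counts (y axis) of A box starts, B box core starts, GCGGAACC starts and summits of members among the 500 strongest by position relative to the snoRNA 5′ end (x axis, bp, negative upstream), in bins of 10 bp. The A box starts peak near -58.5, the B box cores near -14, and 49 of the 59 summits lie in the plotted range, most of them upstream.

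GCGGAACC, also picked after reading upstream sequences of the 45 strongest members, marked another, smaller set of snoRNA genes. It was in the searched window of 19 snoRNA genes and started at a median of -64 (range -89 to 2), in R08C7.19 inside the gene. The same window held it at 30 of 129 snRNA genes (23.3%) but at 0.0951% of protein-coding genes. Of the 19 snoRNA genes, 16 had a member, 6 one among the 500 strongest and 2 an IDR peak, with a median best rank of 974. The strongest was F01D5.12 at rank 64, with a summit 134 bp past the 5′ end, then Y53F4B.47 at rank 116, with a summit 176 bp past it, and T26A8.6 at rank 210, with a summit 51 bp past it. These summits lay downstream of the element, and over the 7 members of the set among the 500 strongest the median offset was 27 bp. Of the 14 genes with GCGGAACC whose sequences had not been read, 11 had a member, 1 one among the 500 strongest and 0 an IDR peak. Their median best rank was 2022, and leaving out the genes that were read excludes most strong peaks by construction.

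The same letters were counted around the summits, within 150 bp on both strands. Those of the pair and GCGGAACC were chosen from strong members, so their counts here are not independent of the choice. A pair was in 30 of 278 member windows (10.8%), beside 2.97% of all nuclear peaks, and in 15 of the 36 in IDR peaks (41.7%). The usual longer B box, a G before GTTCNANNC, which contains the core, was in 25 members (8.99%), beside 4.02% of all, and in 8 of 36 in IDR peaks (22.2%). GCGGAACC was in 11 members (3.96%), beside 0.93% of all. The T-box letters AGGTGTGA were in 1 member (0.360%), against 0.667% of all nuclear peaks, and in 0 of the 36 in IDR peaks. A match is a stretch of letters, not a binding site, and no match says only that these letters are not in the window.

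Peaks at other small RNA genes in the same list gave a scale for these values. Peaks at tRNA and snRNA genes were taken within 250 bp of the gene, a shorter reach than the 500 bp used for members. IDR peaks overlapped 12.9% of the 278 members (18% of those within 250 bp). The share was lower for the 521 peaks at tRNA genes, 7.68%, and for the 88 at snRNA genes, 5.68%. The median rank percentile of members, 83.0 (86.7 within 250 bp), was below the 93.0 of tRNA peaks and nearer the 79.9 of snRNA peaks. Among the 500 strongest were 21.2% of members (26.5% within 250 bp), 25.7% of tRNA peaks and 15.9% of snRNA peaks. A pair was in 47.6% and the longer B box in 74.9% of tRNA peak windows, where they lie inside the tRNA gene, and GCGGAACC was in none. The GC content within 150 bp of the summit had a median of 41.9% in members, 45.2% in those in IDR peaks, and 39.5% in all nuclear peaks; its part in the strength of the peaks was not tested.

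Peaks near genes for the proteins that work with snoRNAs, and for RNA polymerase III factors, were found in the relaxed list but not in the IDR list. All 4 listed box C/D protein genes had a pooled summit within 1000 bp of a start, beside 51.5% of protein-coding genes: nol-56 at rank 843 with a signal of 58.3, snu-13 at 2256, fib-1, which encodes fibrillarin, at 6706, and nol-58 at 10326. Of 4 box H/ACA protein genes, 3 did: nola-3 at rank 730, Y48A6B.3 at 2327 and dkc-1, the pseudouridine synthase gene, at 6503. Of 14 genes for RNA polymerase III, TFIIIC, TFIIIB and the snRNA activating complex, 9 did, led by rpc-2 at rank 859 and snpc-3.4 at 1339. An IDR summit was at 0 of these 22 genes, beside 0.501% of protein-coding genes, a share too low for so few genes to be read against. The peak at rank 843 counted for nol-56 is itself a member, closest to the snoRNA gene K07C5.11 inside nol-56. It is therefore not a separate observation.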

How the data were processed

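Peak lists of 2 ChIP-seq libraries of 1 group were used as deposited on ce11: relaxed peaks and background for replicate 1 (25659), replicate 2 (30000) and the pool (30000), and the IDR list. Per the deposited text files, relaxed lists came from alignments and further input files, and the IDR list came from relaxed lists; which aligner and caller were run is not given in the sources used here. Within these lists, each deposited signal value and −log10 q are the authors' own; the signal's scaling is not stated, so its levels were compared within lists and its ranks between replicates. The deposited summit offset was added to the peak start. Values in the pool derive from both replicates, so the 3 lists are not independent. No read counts were used, so depth is unknown; the number of unmapped sample columns was 0.

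Of the 30000 pooled peaks, 10 mitochondrial ones were left out. Overlap meant at least 1 bp. Members and lists were chosen with earlier results of these data known, and no test over peaks was made. Each member went to the closest snoRNA gene by Ensembl 115; sequences are RefSeq WBcel235. Wilson and Newcombe intervals cover counting error only. The letters of the longer B box are its usual ones; those of the pair and GCGGAACC were picked after reading upstream sequences of the 45 strongest members. Named are the 20 strongest members, the 3 strongest per class, the 3 with the largest replicate difference in rank, and their hosts. That difference was taken among members within the 500 strongest with a peak in both replicates. Others named were chosen after their values were seen. Alternatives changed distance, number of strongest peaks, IDR part, motif letters and replicate. The code for assignment was run on simulated data: 200 of 200 planted summits were recovered, 190 with the planted gene closest. All were planted upstream and within reach, at genes far from tRNA genes. Downstream summits and the exclusion at tRNA genes were not tried. Python 3.11.15, numpy 2.4.6, pandas 2.3.3, scipy 1.17.1 and statsmodels 0.14.6 were used.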

Additional observations from a re-analysis of the deposited data

How the results depend on the processing

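The sign changed for 2 results under the alternatives run. The IDR share inside minus outside coding genes, whose interval includes 0, was 0.12 percentage points within 1000 bp, against -3.26 within 500 bp, and the median offset is given below. Counting members within 1000 bp gave 430. The IDR share was 18% within 250 bp, 9.30% within 1000 bp and 7.55% for the higher-signal part of the IDR list. The share among the 500 strongest was 26.5% within 250 bp and 15.1% within 1000 bp, and became 12.6% for as many of the strongest as the IDR list holds and 26.6% for the 1000 strongest; from each replicate alone it ran from 16.8 to 22.4%. The share strong in both replicates was 6.83% for that smaller number and 22.3% for the 1000 strongest. The median percentile was 74.6 within 1000 bp and 76.4 without members in IDR peaks. The share of snoRNA genes with a member was 51.2% within 250 bp and 75.1% within 1000 bp.

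The median offset was 26.5 bp within 250 bp, 39 bp within 1000 bp, 31.5 bp in each replicate alone, and it changed sign, to -17.5 bp in IDR peaks and, in an alternative chosen after seeing the data, to -20 bp among the 500 strongest. The B box share was 47.2% with GTTCNANNC. Without the genes whose sequences had been read, also chosen after seeing the data, 6.67% of genes with a pair had an IDR peak; this leaves out most strong peaks by construction. No paired analysis was possible because there is 1 group. Limits are the 2 libraries, the unknown depth and the unstated scaling of the signal, and 35 genes with an IDR peak, which set the width of the intervals.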
